A study of Mus musculus with 230 samples.

Results

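The 7 genes described here, Mrgprd, Mrgprx1, Mrgpra3, P2rx3, Cd55, Lpar3 and Lpar5, are markers of non-peptidergic nociceptors, and they were taken by name from a table of 53278 genes. The RNA came from hand-picked sensory neurons of mouse dorsal root ganglia (DRG) at lumbar levels L4 and L5. All mice were crosses of C57BL/6 and CAST/Ei, either intact or operated with a sciatic nerve injury, and the cytoplasm of each neuron was sequenced with SMART-seq2, a full-length RNA protocol. The low-input libraries formed 6 groups of 3: intact at 1 month, injured at 1 month, intact at 8 months, injured at 8 months, intact at 12 months and injured at 12 months. The single cells formed 4 groups: 18 intact and 21 injured cells at 1 month, and 8 intact and 22 injured cells at 1 year. The labels give neither the number of neurons in a low-input library nor the animals behind libraries and cells, so the spread between replicates may be partly technical.

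Non-peptidergic nociceptors are small, unmyelinated sensory neurons that carry pain and itch signals from the skin. They depend on the transcription factor Runx1, express the growth factor receptor Ret, and are largely free of neuropeptides such as substance P. Mrgprd, Mrgprx1 and Mrgpra3 are Mas-related G protein-coupled receptors: Mrgprd responds to beta-alanine and marks the most numerous class, while Mrgprx1 (also known as MrgprC11) and Mrgpra3 are itch receptors of a smaller class, Mrgpra3 responding to chloroquine. P2rx3 is an ATP-gated cation channel of nociceptors, Cd55 is a membrane-anchored inhibitor of complement, and Lpar3 and Lpar5 are receptors for lysophosphatidic acid.

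The deposited coordinates (GRCm38) place Mrgprd on chromosome 7 at 145314835 to 145324086, plus strand, with 3144 bp of exon. Mrgprx1 lies at 48020971 to 48027597 and Mrgpra3 at 47588950 to 47601372 of the same chromosome, both on the minus strand in the cluster of Mas-related receptors. P2rx3 lies on chromosome 2 at 84998583 to 85037462 and Cd55 on chromosome 1 at 130439027 to 130462744, both minus. Lpar3 lies on chromosome 3 at 146220963 to 146286186 and Lpar5 on chromosome 6 at 125067920 to 125082472, both plus. Counts are exonic and come from reads with 1 place in the genome, so those of genes with close copies (the Mas-related receptors, and Cd55 with its copy Cd55b) are uncertain.

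The promoters of Mrgprd, Lpar3 and Lpar5 are shown because these were the members whose levels ran closest together from library to library (below, r from 0.954 to 0.964). Each window is the 250 bases before a RefSeq transcription start (GRCm38.p6), read 5′ to 3′ on the gene's strand: chr7:145314585-145314834 for Mrgprd, chr3:146220711-146220960 for Lpar3, and chr6:125067670-125067919 and chr6:125071085-125071334 for the 2 listed starts of Lpar5. Capitals mark the RUNX core motif, searched as TGTGGT or TGCGGT on both strands.
Mrgprd: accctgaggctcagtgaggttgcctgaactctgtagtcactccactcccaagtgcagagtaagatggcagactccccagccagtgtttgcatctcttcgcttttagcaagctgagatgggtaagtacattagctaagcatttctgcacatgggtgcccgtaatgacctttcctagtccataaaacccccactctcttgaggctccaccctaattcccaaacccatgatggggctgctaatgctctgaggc
Lpar3: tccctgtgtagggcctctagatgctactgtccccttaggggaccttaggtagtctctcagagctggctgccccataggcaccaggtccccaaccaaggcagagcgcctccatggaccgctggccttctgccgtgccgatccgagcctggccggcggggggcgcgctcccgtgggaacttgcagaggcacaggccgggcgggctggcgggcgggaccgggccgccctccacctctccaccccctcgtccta
Lpar5, first start: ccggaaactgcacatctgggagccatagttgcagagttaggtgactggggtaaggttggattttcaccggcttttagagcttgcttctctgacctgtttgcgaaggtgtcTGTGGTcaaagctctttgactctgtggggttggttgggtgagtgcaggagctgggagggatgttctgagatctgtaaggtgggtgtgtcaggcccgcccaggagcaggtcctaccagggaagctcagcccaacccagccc
Lpar5, second start: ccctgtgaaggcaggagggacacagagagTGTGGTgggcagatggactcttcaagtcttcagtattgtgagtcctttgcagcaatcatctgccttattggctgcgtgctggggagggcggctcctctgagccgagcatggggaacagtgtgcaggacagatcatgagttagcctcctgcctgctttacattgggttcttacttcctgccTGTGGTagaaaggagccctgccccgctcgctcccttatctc
The motif occurred once before the first start of Lpar5, beginning 140 bases upstream, and 2 times before the second. It was not in these windows of Mrgprd and Lpar3, nor in those of Mrgprx1 and Cd55. Of all 32851 RefSeq windows of this length, 18.6% held it, and 5 of the 7 members had an entry.

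The 18 low-input libraries held 7531967 to 19443627 counts of mouse genes (median 10890400). A single feature, CT010467.1, took a large part of them, which left 770328 to 11587094 counts outside it. Replicate 2 of the intact 12-month group stood apart as the library with the fewest (770328). It also had 40.5% mitochondrial RNA among those counts, against 1.19% to 3.55% in the others, and a sum of large-fibre markers of 17870 CPM, against at most 4856 CPM. The part of these in the library's Mrgprd value of 0 was not tested. General neuronal genes were present in every low-input library, with 0 of 10 at 0 counts. Sprr1a, a gene induced in injured neurons, was at 60.5 to 1080 CPM (counts scaled to equal TMM library size, per 1000000) in the injured libraries and at most at 0.652 CPM in the intact ones, as the labels say. Y-linked genes were counted in all libraries of 1 and 8 months and in none of 12 months, so age and sex cannot be told apart at that age.

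Mrgprd was present at up to 649 CPM in some libraries and missing from others of the same group. In intact neurons it measured 0, 46.9 and 211 CPM at 1 month, 0, 649 and 303 CPM at 8 months, and 43.1, 0 and 156 CPM at 12 months. In injured neurons it measured 0, 0.0641 and 39.8 CPM at 1 month, 448, 1.74 and 66.5 CPM at 8 months, and 15.7, 73.8 and 48.8 CPM at 12 months. Each intact group thus held 1 library without a single Mrgprd count, and the injured and intact libraries overlapped at every age. In such pooled material, fewer cells of a type and less RNA per cell cannot be told apart.

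**Figure D1:**
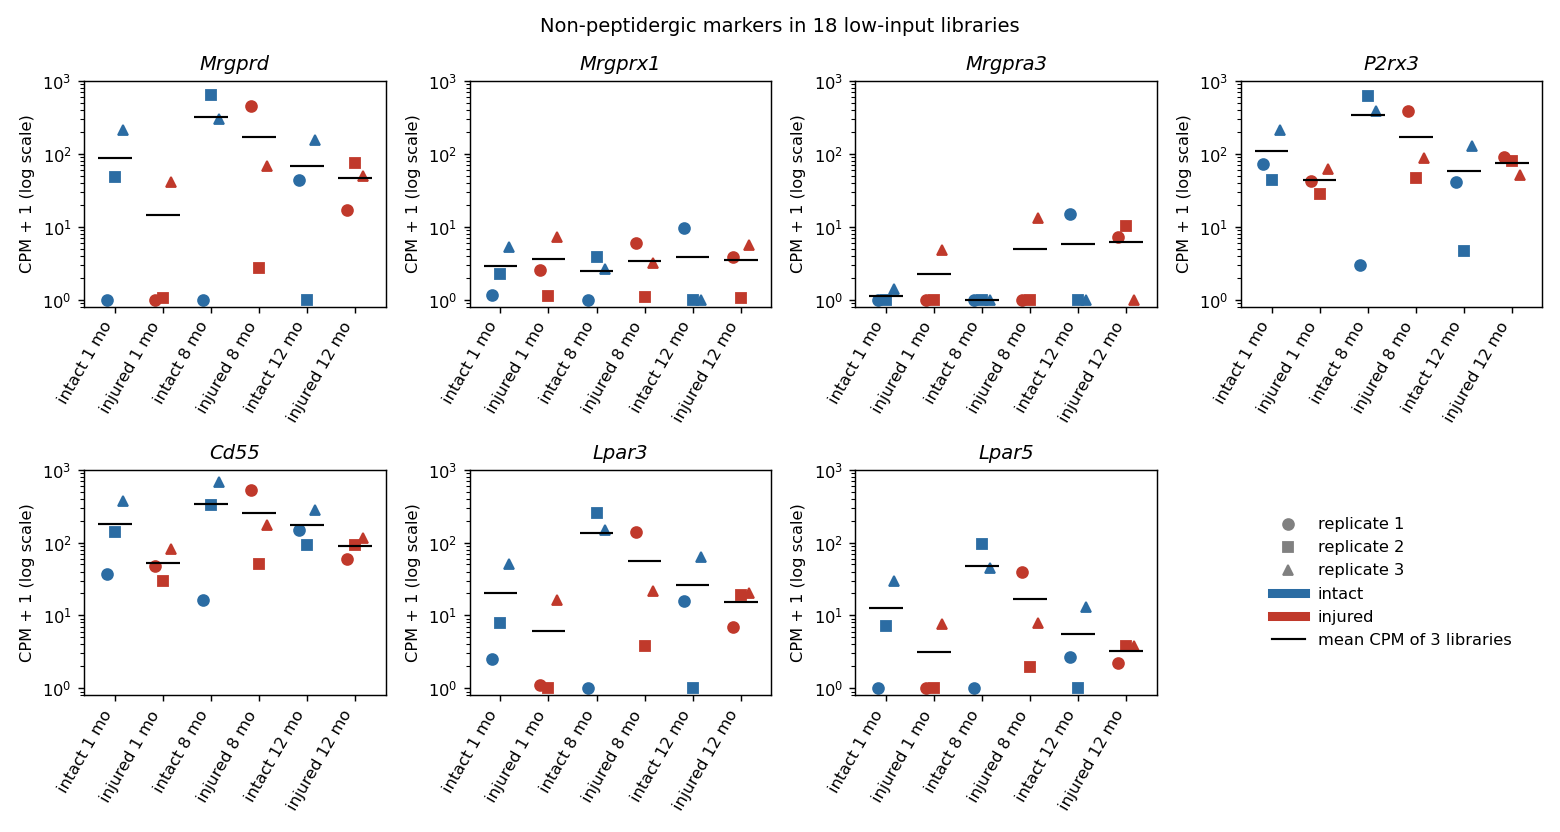
Level of each marker in the 18 low-input libraries (vertical axes: CPM + 1, log scale; horizontal axes: 6 groups of 3 libraries; symbols: replicates; black lines: group means). Libraries of 1 group lie far apart for most markers, as for Mrgprd in intact neurons at 8 months (0 to 649 CPM).

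P2rx3 was counted in all 18 libraries. Its level was 70.9, 43.4 and 214 CPM in intact and 41.5, 27.4 and 60.7 CPM in injured neurons at 1 month. At 8 months it was 1.96, 625.3 and 385 CPM in intact and 381, 46.2 and 85.6 CPM in injured neurons. At 12 months it was 40.2, 3.61 and 129 CPM in intact and 88.8, 79.8 and 50.5 CPM in injured neurons. The 2 lowest values belonged to intact libraries that also held no Mrgprd, and the groups overlapped at each age.

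Cd55, likewise counted in all 18 libraries, ranged from 15.5 to 669 CPM. Intact and injured group means (± SD, n = 3) were 181 ± 169 and 51.4 ± 26.2 CPM at 1 month, 336 ± 327 and 250 ± 247 CPM at 8 months, and 173 ± 98 and 88.5 ± 28.1 CPM at 12 months. The injured mean was the lower at each age, by less than the spread of the intact libraries.

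The lysophosphatidic acid receptors followed Mrgprd. Lpar3 measured 1.5, 6.9 and 49.2 CPM in intact and 0.121, 0 and 15.2 CPM in injured neurons at 1 month, 0, 251.5 and 148 CPM in intact and 141, 2.78 and 20.4 CPM in injured neurons at 8 months, and 14.8, 0 and 61.5 CPM in intact and 5.96, 17.8 and 19.4 CPM in injured neurons at 12 months. Lpar5 was lower, at most 93.4 CPM (intact, 8 months, replicate 2), with 5 of 18 libraries at 0 counts. For both receptors the highest library was the one highest in Mrgprd.

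The itch receptors stayed low. Mrgprx1 ranged from 0 to 8.56 CPM, with 7 of 18 libraries below 1 CPM, and its group means lay between 1.48 and 2.85 CPM. Mrgpra3 had no count in 12 of 18 libraries. It measured 3.71 CPM in 1 injured library at 1 month, 12.0 CPM in 1 injured library at 8 months, 6.28 and 9.31 CPM in 2 injured libraries at 12 months, and 14.1 CPM in 1 intact library at 12 months. The remaining intact library with a count, at 1 month, had 0.404 CPM.

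Per kilobase of exon, the mean over the 18 libraries was highest for P2rx3 (47.3 CPM per kb), followed by Mrgprd (37.2), Cd55 (37.1), Lpar3 (17), Lpar5 (9.05), Mrgpra3 (1.97) and Mrgprx1 (1.94). Ordered by mean CPM, intact neurons at 8 months came first and injured neurons at 8 months next for Mrgprd, P2rx3, Cd55, Lpar3 and Lpar5. For Mrgprx1 and Mrgpra3 the intact 8-month group came last. For each of the 7 genes all 5 pairs of neighbours in the order overlapped in their libraries, so the order lies within the spread.

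Whether nerve injury changed these markers was tested with edgeR's quasi-likelihood test on all 14212 genes that passed the expression filter, all 7 members among them, with calls made below 0.05 after Benjamini-Hochberg adjustment. Averaged over the ages, 0 of 7 members were called, beside 6.18% of all genes, and 0 of 7 had an unadjusted p below 0.05. Mrgprd went from 157 ± 214 CPM in intact to 77.1 ± 142 CPM in injured neurons (SD, n = 9 each), an edgeR log2 change of -1.39 ± 1.33 (SE, adjusted p = 0.608). For Cd55 the log2 change was -1.07 ± 0.59 (edgeR adjusted p = 0.333) and for Lpar5 it was -1.77 ± 1.13 (edgeR adjusted p = 0.412). The estimates were -1.39 ± 1.10 for Lpar3, -0.68 ± 0.71 for P2rx3 and 0.22 ± 0.97 for Mrgprx1. Of the 7 estimates 5 were below 0, with a median of -1.07, beside a median of 0.03 over all genes.

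The most distant estimate belonged to Mrgpra3, at a log2 change of 3.93 ± 1.85 (edgeR adjusted p = 0.254). DESeq2 called it on the same genes, with a log2 change of 8.54 (adjusted p = 0.0362), beside 10.9% of all genes, and again at 8 months, beside 3.75%. That estimate rests on few counts. At 8 months intact neurons had 0 Mrgpra3 counts against 176 in injured neurons, at least 45.8-fold higher by a floor of 3 counts over the intact group, and all 176 were in replicate 3. Without that library neither 8-month group had a Mrgpra3 count. Near-identical copies in the receptor cluster add to the uncertainty.

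At the single ages 0 of 7 members were called by this fit, beside 0.232% of all genes at 1 month, 0.957% at 8 months and 2.99% at 12 months. At 1 month the log2 changes were -2.71 ± 2.40 for Mrgprd, -1.82 ± 1.04 for Cd55 and -2.47 ± 1.98 for Lpar5 (edgeR adjusted p of 1 for each). Whether libraries of the same number are paired at 1 month is not settled. With the replicate as a block 5 genes instead of 33 were called there, again none of the 7. At 12 months Mrgprd was at -0.58 ± 2.26 and P2rx3 at 0.28 ± 1.23. Injured and intact libraries were free of overlap for 0 of 7 members at each age, beside 17.8% of all genes at 1 month, 14.3% at 8 months and 25.9% at 12 months.

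**Figure D2:**
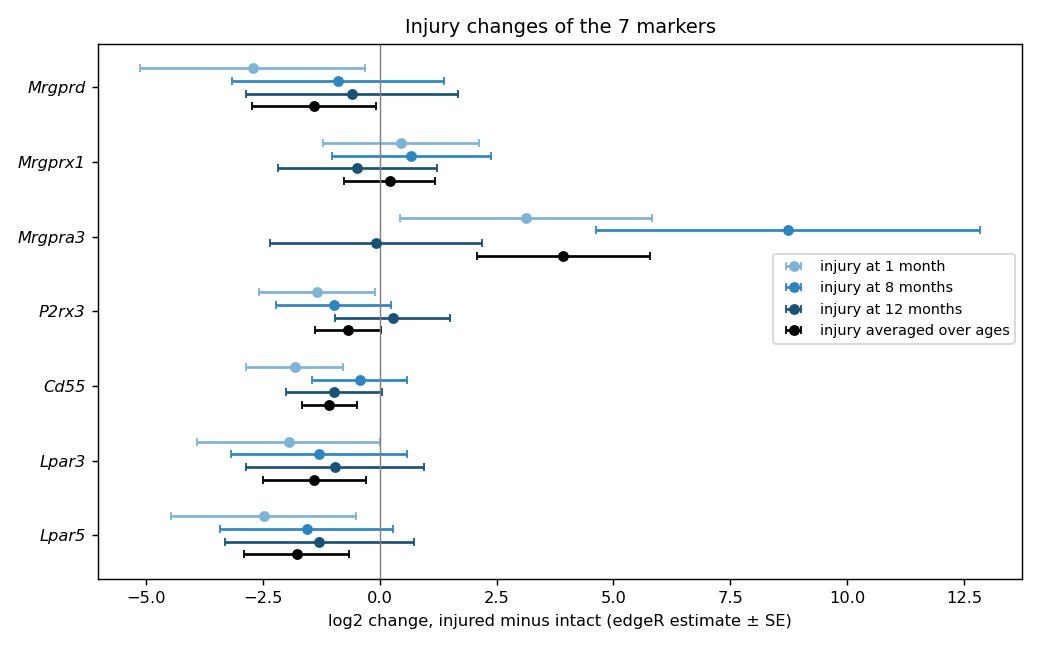
Estimated injury change of each marker at 1, 8 and 12 months and averaged (horizontal axis: log2 change, injured minus intact; bars: SE; points: edgeR estimates from 18 libraries). Bars are 0.59 to 4.11 log2 units to each side, and 0 of 7 markers passed the test in any of the comparisons shown.

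These calls depended on the expression filter. Without it, the same edgeR fit on 28520 genes called 5 of 7 members in the averaged comparison, beside 6.04% of all genes: Mrgprd, Cd55, Lpar3 and Lpar5 as lower and Mrgpra3 as higher, with log2 changes of -1.38, -1.05, -1.37, -1.75 and 3.94. It called 4 of 7 at 1 month (Mrgprd, Cd55, Lpar3 and Lpar5, all lower) beside 0.968% of all genes, 1 of 7 at 8 months (Mrgpra3) beside 2.32%, and 0 of 7 at 12 months. In that fit the prior degrees of freedom were infinite, so the tests used a spread common to genes of like level and not the gene's own. The quasi-likelihood dispersion of Mrgprd was 0.697 there and 22.8 in the filtered fit. In the averaged comparison, scaling to the spike-in RNAs moved the median log2 change of all genes from 0.03 to 2.90. It put all 7 members above 0 there and at 12 months, while 4 of 7 stayed below 0 at 1 month and at 8 months. This scaling called 4 of 7 in the averaged comparison, beside 94.9% of all genes, and 6 of 7 at 12 months, beside 96.2%. It called 1 of 7 at 8 months (Mrgpra3), beside 4.44%, and 0 of 7 at 1 month.

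Age was tested jointly over the 3 ages within each state. In intact neurons 0 of 7 members were called, beside 4.17% of all genes, and in injured neurons 0 of 7, beside 0.218%. The lowest unadjusted p was that of Mrgpra3 in intact neurons (p = 0.0493, edgeR adjusted p = 0.22). P2rx3 had the next one in intact neurons, with means of 109, 337 and 57.6 CPM at 1, 8 and 12 months (edgeR adjusted p = 0.379). In injured neurons Cd55 went from 51.4 CPM at 1 month to 250 CPM at 8 months (edgeR adjusted p = 0.999). With spike-in scaling 5 of 7 members were called for age in intact neurons, beside 85.5% of all genes. Without the filter 5 of 7 were called in each state, beside 6.84% of all genes in intact and 1.12% in injured neurons.

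A difference of the injury effect between ages was not detected for the 7 members, with edgeR adjusted p of 0.834 to 1. In this interaction test 0 genes were called (0% of all), while 1161 had an unadjusted p below 0.05 and DESeq2 called 208, none of them a member. Without the filter 385 genes (1.35%) were called, Mrgprd and Mrgpra3 among them.

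The members spread widely between replicates of a group. The SD of log2 CPM within groups was 4.85 for Mrgprd, 3.74 for Lpar3, 3.37 for Lpar5, 2.8 for Mrgpra3, 2.48 for Mrgprx1, 2.3 for P2rx3 and 1.61 for Cd55. Among genes of like level (within 0.5 log2 CPM of the member), 97.2% had a smaller SD than Cd55, and 98.7% a smaller one than P2rx3. For the other five the share was 99.7% to 99.9%. The biological coefficient of variation, edgeR's relative spread between replicates, was 2.00 for Mrgprd and 0.81 for Cd55, against 0.543 for genes in common.

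The markers varied together. Over the 18 libraries, Pearson's r of log2 CPM was 0.964 between Mrgprd and Lpar3, 0.964 between Mrgprd and Lpar5, 0.863 between Mrgprd and Cd55, and 0.78 between Mrgprd and P2rx3. The libraries share groups and several sit near 0, but among the 12 libraries with at least 10 CPM of Mrgprd these values were 0.965, 0.942, 0.896 and 0.891. As deviations from the group means they were 0.96, 0.987, 0.891 and 0.811. Mrgprx1 went with Mrgprd at 0.579 over all libraries and at -0.084 in those 12. Mrgpra3 stood outside, at 0.279 over all and -0.618 in those 12. These are descriptions across libraries that share their groups and their depth.

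**Figure D3:**
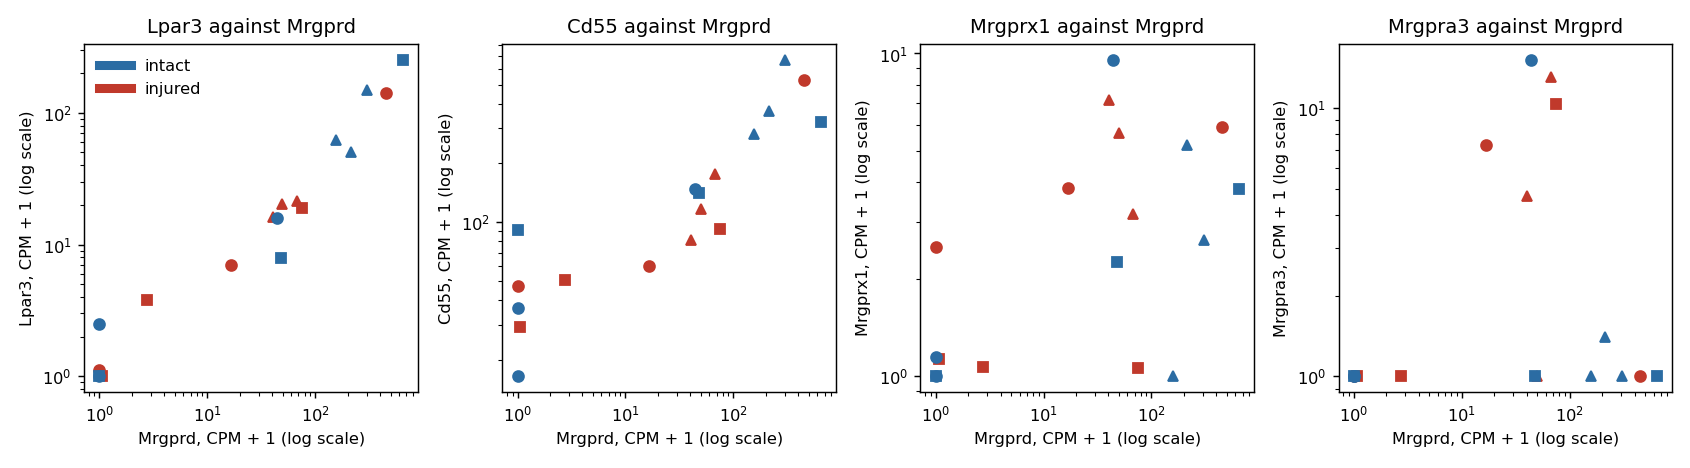
Lpar3, Cd55, Mrgprx1 and Mrgpra3 against Mrgprd in the 18 low-input libraries (both axes: CPM + 1, log scale; circles, squares and triangles: replicates 1, 2 and 3; blue: intact; red: injured). Lpar3 rises with Mrgprd along 1 line (r = 0.964), Mrgpra3 does not (r = 0.279).

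The genes most like each member over these libraries are given as a description, with no claim of shared function. For Mrgprd they were Trpc6, a cation channel (r = 0.983), A3galt2, a glycosyltransferase (0.983), and Mrgprb5, another Mas-related receptor (0.982). For Lpar3 they were Mrgprb5 (0.970), Trpc6 (0.967) and Tmem45b (0.964), and for Lpar5 A3galt2 (0.980), Mrgprb5 (0.975) and the pseudogene Mrgprx3-ps (0.972). P2rx3 was nearest to Klf5 (0.951) and Sh2d5 (0.937), and Cd55 to Fxyd2 (0.952), Ldb2 (0.944) and Scg3 (0.941). For Mrgprx1 the nearest were Pde8a (0.835), Osmr, a subunit of the interleukin-31 and oncostatin M receptors (0.826), and Mrgpra9 (0.809). Mrgpra3 was nearest to Neat1 (0.883), Mdh1b (0.820) and Gm18349 (0.767), each below 1 CPM on average.

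The other Mas-related receptors gave 7 testable genes of 16, of which 0 were called in the averaged injury comparison (median log2 change 0.90). Mrgprb5 had a mean of 17.8 CPM and a log2 change of -1.56, and Mrgpre 15.5 CPM and 1.11. Of 11 testable ATP receptors and ectonucleotidases 0 were called (median 0.25). The most abundant was Acpp, the prostatic acid phosphatase that makes adenosine in these neurons, at 104 CPM with a log2 change of -1.14. Its correlation with Mrgprd was 0.968. Entpd3 followed with 38.8 CPM and -0.43. Of 6 testable genes of lysophosphatidic acid signalling 0 were called (median 0.94), the most abundant being the phosphatases Plpp1 (53.7 CPM) and Plpp2 (8.59 CPM). Of 7 testable complement genes 1 was called higher, C4b, from 0.261 to 1.74 CPM (edgeR adjusted p = 0.0219). Its call was lost without injured replicate 2 of 12 months or of 8 months, and with the replicate block (edgeR adjusted p = 0.0633).

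Of 17 testable further markers of non-peptidergic neurons 3 were called higher and 0 lower (median -0.57). Il31ra, the interleukin-31 receptor of itch neurons, rose from 1.42 ± 1.62 to 11.5 ± 17.4 CPM (SD, n = 9 each, edgeR adjusted p = 0.00581). Htr1f, a serotonin receptor, rose from 0.874 ± 1.29 to 5.09 ± 2.45 CPM (edgeR adjusted p = 0.0089). Gfra1, the GDNF co-receptor, rose from 53 ± 29.4 to 264 ± 135 CPM (edgeR adjusted p = 0.034), a call kept in 10 of 23 alternatives. The correlation of Gfra1 with Mrgprd was 0.269. With the replicate block Il31ra had an edgeR adjusted p of 0.0599.

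Among 13 testable transduction genes 1 was called higher, the potassium channel subunit Kcnq3 (log2 change 1.92, edgeR adjusted p = 0.0138), and 1 lower, the kinase Prkce (-0.74, edgeR adjusted p = 0.0345, kept in 11 of 23 alternatives). Of 8 transcription factors of the nociceptor lineage 1 was called lower, Prdm12 (from 108 to 22 CPM, edgeR adjusted p = 0.0189), a call lost without injured replicate 1 of 1 month and with the replicate block (edgeR adjusted p = 0.0858). Spike-in scaling turned both Prdm12 and Prkce upward. Of 8 peptidergic markers 2 were called higher: Adcyap1, which encodes the neuropeptide PACAP, from 3.15 to 103 CPM (edgeR adjusted p = 0.000494), and Gfra3 from 6.38 to 23.3 CPM (edgeR adjusted p = 0.00326). Of 12 large-fibre markers 0 were called (median -0.19), with Nefm at 2220 and Nefh at 1020 CPM. Of 5 testable markers of C-fibre low-threshold mechanoreceptors 0 were called, with Piezo2 at 245 and Cacna1h at 8.91 CPM.

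Injury itself showed in 10 of 11 testable injury genes, all higher (median log2 change 5.76), among them Nts, Sprr1a, Npy, Atf3, Gal and Ecel1, each kept in 23 of 23 alternatives. Of 10 general neuronal genes 3 were called higher, Slc17a6, Stmn2 and Tubb3, and 1 lower, Rbfox3, which spike-in scaling turned upward. These were kept in 23, 19, 17 and 10 of 23 alternatives. Satellite glia markers were summed to 115 to 2038 CPM in the injured and 46.6 to 742 CPM in the intact libraries, and 1 of 9 was called higher. At 1 month the glial sums did not overlap, at 97.5 to 616 CPM in the intact and 1295 to 2038 CPM in the injured libraries. Of 7 testable Schwann cell markers 0 were called (Pmp22 at 337 and Mbp at 34.6 CPM), of 3 immune markers 0 (Lyz2 at 2.64 and Csf1r at 1.72 CPM), and of 5 endothelial or fibroblast markers 1 higher, Col1a2 (kept in 20 of 23). The part of these other cells in the members' values was not tested.

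In single cells a small number of neurons carried most of the markers together. Of 69 cells, 55 held at least 100000 counts outside CT010467.1, and these are used below with CPM over the counts outside that feature. Of these, 53 had at least 10 CPM of the neuronal gene Snap25. The others, at 0 and 8.3 CPM, had 608 and 561 genes detected and 68.29% and 42.47% mitochondrial RNA. They were kept and are counted below as low in Mrgprd. Of the 55 cells, 9 had at least 100 CPM of Mrgprd (16.4%, exact Clopper-Pearson 95% interval 7.77% to 28.8%), 3 had 36 to 78.9 CPM, and 43 had at most 9.23 CPM. The limits of 10 and 100 CPM separate these ranges, the second having been chosen after the values were seen. The 9 cells came from all groups: 2 of 12 intact and 3 of 17 injured cells at 1 month, 1 of 8 intact and 3 of 18 injured cells at 1 year. The depth limit left out intact 1-month cells with 1490, 1390 and 267 CPM of Mrgprd (74, 40 and 6 counts). Those with 74 and 40 counts had P2rx3 at 1310 and 1420 CPM and Cd55 at 1410 and 1420 CPM. The highest injured cell left out had 25.3 CPM (2 counts). The shares by group therefore depend on this limit. Each group counts as 1 sample here, since no label ties cells to animals, so no test between groups was made.

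The 3 injured 1-month cells of this kind had 1270, 2450 and 2720 CPM of Mrgprd, the 2 intact ones 1320 and 1640 CPM. At 1 year the injured cells had 224, 865 and 1540 CPM and the intact cell 428 CPM. P2rx3 accompanied Mrgprd in all 9, at 114 to 2160 CPM (median 1090), and so did Cd55, at 263 to 1940 CPM (median 1250). Lpar3 reached at least 10 CPM in 8 of the 9 (median 578 CPM) and Lpar5 in 7 of the 9 (median 82.3 CPM). The cell without Lpar3 was the shallowest of them, with 315783 counts outside CT010467.1. It held 19 counts of Lpar5, 136 of P2rx3 and 319 of Cd55. Intact 1-month cells of 49557 and 28811 counts, below the depth limit, had 19 and 14 counts of Lpar3. The part of depth in the missing Lpar3 was not tested. Both Lpar5 exceptions were 1-year cells, the intact one with 428 and the injured one with 224 CPM of Mrgprd. These 2 cells had 43.3% and 25% mitochondrial RNA and 6440 and 4480 CPM of Apoe, a satellite glia gene. The other seven had 0.79% to 7.77% and at most 101 CPM. Without all cells above 20% mitochondrial RNA, a limit chosen after the values were seen, 7 of 47 cells had at least 100 CPM of Mrgprd (14.9%, exact interval 6.2% to 28.3%). In those 7 cells P2rx3 was at 431 to 2160 CPM, Cd55 at 1010 to 1940 CPM and Lpar5 at 60.2 to 335 CPM. The part of RNA quality and glial RNA in the values of the 2 cells was not tested.

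**Figure D4:**
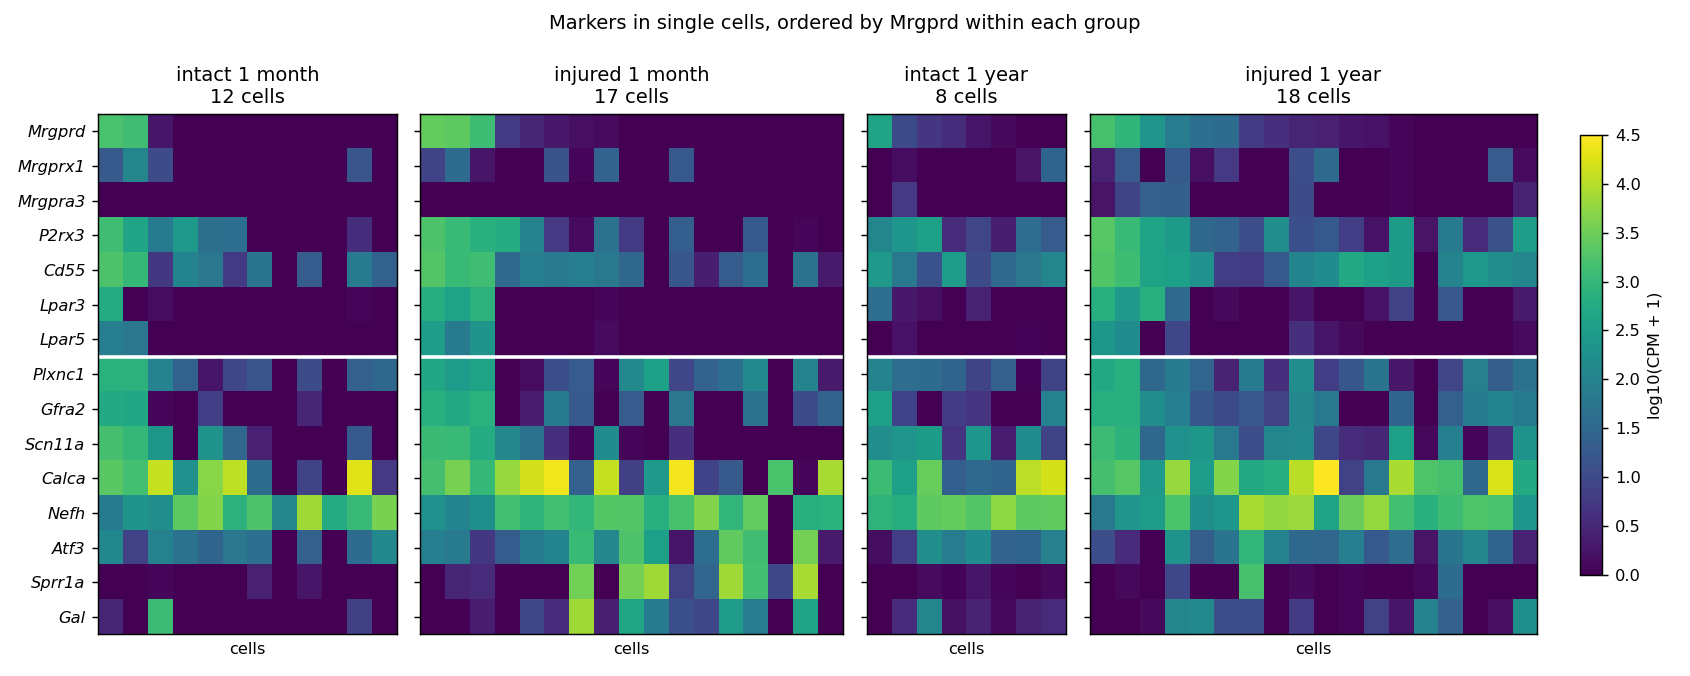
Markers in the 55 single cells with at least 100000 counts outside CT010467.1 (rows: genes, the 7 members above the white line; columns: cells ordered by Mrgprd within each group; colour: log10 of CPM + 1). The leading cells of each group carry Mrgprd with P2rx3 and Cd55, and their Sprr1a stays at or below 2.4 CPM.

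Lpar3 and Lpar5 were found almost only in cells with Mrgprd, while P2rx3, Cd55 and Mrgprx1 were also found in others. Mrgpra3 reached 10 CPM in 0 of the 43 cells low in Mrgprd (highest 9.57 CPM). Among the 43 cells with less than 10 CPM of Mrgprd, Lpar3 reached 10 CPM in 1 and Lpar5 in 0, which allows a share of up to 6.98% by 3 cells of 43. P2rx3 reached 10 CPM in 21 and Cd55 in 32 of the same 43 cells. Of these, 8 cells had at least 100 CPM of P2rx3 (101 to 613 CPM), and their Calca, the gene of the neuropeptide CGRP, was at 187 to 15300 CPM.

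Mrgprx1 was found in 2 kinds of cell. It reached 10 CPM in 14 of 55 cells, of which 4 had at least 100 CPM of Mrgprd, with Mrgprx1 at 17 to 111 CPM, and 1 had 78.9 CPM of Mrgprd. In the remaining 9 cells Mrgprd was at most 1.94 CPM, and Mrgprx1 was at 10.3 to 34.3 CPM. All 9 had Calca at 10700 to 32000 CPM (median 17500). In the 34 cells low in both receptors Calca was at 0 to 15300 CPM (median 126). Of these 34, 3 reached 10000 CPM, a limit that lies just below the lowest of the 9 values. Calca is a marker of peptidergic neurons.

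Mrgpra3 had no count in any of the 39 cells of 1 month and a count in 1 of 8 intact and 7 of 22 injured cells at 1 year. The 1-month cells were shallower, with medians of 291824 (intact) and 1033580 (injured) counts outside CT010467.1, against 7145018 and 3524089 at 1 year. Thinned to 100000 counts each, 0 of 12 intact and 0 of 17 injured cells had a count at 1 month. At 1 year 0 of 8 intact and 2 of 18 injured cells had one. It reached 10 CPM in 2 cells, both injured at 1 year, at 22 and 22.7 CPM. One of them had the most counts of all cells (22890735 outside CT010467.1) and 78.9 CPM of Mrgprd. It held 73.1% of the injured 1-year group's Mrgpra3 counts. This cell also had 3120 CPM of Apoe, 6490 CPM of Calca, 1680 CPM of Nefh and 20890 genes detected. The part of RNA from other cells in its values was not tested. The other cell, at 22.7 CPM, had 25% mitochondrial RNA and 4480 CPM of Apoe, and the part of these in its value was not tested.

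Genes outside the member list also differed between the 9 Mrgprd cells and the rest. They were chosen with their values known and are given as a description. Plxnc1 was at 31.4 to 776 CPM (median 481), Gfra2 at 162 to 737 CPM (median 566) and the sodium channel gene Scn11a at 31.9 to 1460 CPM (median 998). In the 43 cells low in Mrgprd the medians of Plxnc1, Gfra2 and Scn11a were 14.9, 2.02 and 3.16 CPM. Nefh, a heavy neurofilament of large neurons, had a median of 185 CPM in the 9 and of 1590 CPM in the 43. Calca was not missing from them, at 274 to 3740 CPM (median 1480), beside a median of 573 CPM in the 43. The level of Sst, a marker of another non-peptidergic class, was 0 in all 9. Nppb, another marker of that class, reached 10 CPM in 2 of the 9 (31 and 40.3 CPM, the same 2 cells with high mitochondrial RNA) and in 0 of the 43. Tac1, the gene of substance P, reached 10 CPM in all 9 (28.4 to 787 CPM, median 67.2) and in 4 of the 43 (median 0). Apoe had a median of 48.1 CPM in the 9 and 162 CPM in the 43. In the 3 cells with 36 to 78.9 CPM of Mrgprd it was at 694 to 46800 CPM. The cell at 46800 CPM had 23.87% mitochondrial RNA. The part of glial RNA and RNA quality in the values of these 3 cells was not tested.

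Cell names end in letters that the labels do not explain. Of 13 cells with a name ending in S, 7 had at least 100 CPM of Mrgprd, of 32 with M, ML or L 1 had, and of 10 with none of these 1 had. The cells with 1490, 1390 and 267 CPM that the depth limit left out have names ending in M and are not among these.

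Mrgprd and the injury gene Sprr1a were not found at high level in 1 cell. Each reached 100 CPM in few of the 55 cells, Mrgprd in 9 and Sprr1a in 7, so the lack of a shared cell cannot show that they exclude each other. In the 6 injured cells with at least 100 CPM of Mrgprd, Sprr1a was at most 2.4 CPM, Gal at most 1.2 CPM, and Atf3, an injury-induced transcription factor, at 0 to 87.3 CPM. The 7 cells with at least 100 CPM of Sprr1a (1430 to 8060 CPM) had at most 5.34 CPM of Mrgprd and 16.4 CPM of P2rx3, and Nefh at 662 to 8160 CPM. At 1 month the names place all 3 injured Mrgprd cells in L5, where 0 of 7 cells had 100 CPM of Sprr1a, and 6 of 10 injured cells in L4 had it. Ganglion and Sprr1a thus moved together among these cells, and whether the Mrgprd cells were themselves injured was not tested. At 1 year Sprr1a reached 100 CPM in only 1 of the 12 injured cells with less than 10 CPM of Mrgprd.

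Pooled over all cells of a group, the level followed these few cells. At 1 month Mrgprd reached 273 CPM over the intact and 617 CPM over the injured cells (exact Poisson 95% intervals 268 to 278 and 610 to 623) and at 49.4 and 163 CPM at 1 year (47.6 to 51.3 and 161 to 166). Of these counts, 94.5% came from 1 intact cell at 1 month and 96.3% from 1 intact cell at 1 year. The intervals cover counting error only. At a single count, Mrgprd was detected in 7 of 18 intact and 9 of 21 injured cells at 1 month, and in 6 of 8 intact and 13 of 22 injured cells at 1 year. When the 55 cells were thinned to 100000 counts each, it was detected in 2 of 12, 4 of 17, 2 of 8 and 9 of 18 cells in the same order.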

How the data were processed

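RNA was sequenced from 18 low-input libraries and 69 single cells, whose values are read counts per gene in 1 deposited table. Of 230 labelled samples, 94 are methylation samples, not analysed here. Per the submitters' processing notes, the authors trimmed with Trim Galore, aligned with STAR to mm10 and counted with featureCounts (1.5.2 per the file headers). The table has 53278 genes and 92 spike-ins, and 0 value columns were left unused.

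Low-input counts were fitted with edgeR 4.0.16 (R 4.3.3): filterByExpr, TMM scaling, robust quasi-likelihood fit on all 6 groups, Benjamini-Hochberg adjustment, threshold 0.05. Correlations used log2 CPM with a prior count of 2. The test was run first on simulated data with the same spread between replicates for all genes, smaller than that of any member. That run therefore does not show how the test behaves for the members. Cells were summarised in Python 3.11.15 (scipy 1.17.1) as CPM over counts outside CT010467.1, with exact 95% intervals, and a count of 0 was read as up to 3 counts. Cells were not clustered and no doublet caller was run.

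Deviations of same-numbered libraries correlated at 0.231, 0.238 and 0.496 at 1 month. At 8 months the values were -0.427, -0.371 and 0.162, and at 12 months -0.08, -0.073 and 0.071. Values of like size thus fell below 0 at 8 months. These correlations therefore do not settle at any age whether the numbers pair the samples. The fit that gave the main calls held no block at any age, 1 month included. In the injury comparisons the replicate block grouped same-numbered libraries within every age, 8 and 12 months included (9 blocks). Its results therefore rest on pairs that these correlations did not establish.

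Alternatives were RLE and spike-in scaling, no expression filter, DESeq2 1.42.0, a replicate block, and leaving out each library. In the age comparisons the block was instead a term for the replicate number shared by all 6 groups. It thus joined equal numbers of different ages, which no label ties to each other. From each gene list at most 6 called genes were named by adjusted p, or, with none called, the 2 most abundant, and for each member the 3 genes most correlated with it. Some named genes are not reported here. The members and lists were chosen with earlier results of these data known.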

Additional observations from a re-analysis of the deposited data

Results flagged for a closer look

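In the 8 intact single cells of 1 year, 5 of 7 markers had 1 cell far above the rest by Dixon's criterion. Its nominal rate of about 1 in 20 groups holds for normally distributed values, and these were mostly at or near 0. Some flags also fell on the same cell, so they are not separate events and no rate can be given. Mrgprd was at 428 CPM in 1 cell and at most 9.23 CPM in the others. That cell had 43.3% mitochondrial RNA, against 0.08% to 6.26% in the others, and 6440 CPM of Apoe, and the part of these in its values was not tested. Lpar3 was at 40.8 CPM in that same cell and at most 1.8 CPM in the others. Mrgprx1 was at 27.6 CPM in a different cell, with 0.747 CPM next. Mrgpra3 was at 4.62 CPM in the cell second in Mrgprd and at 0 in the other 7. Lpar5 was at 0.63 CPM (3 counts) in the same cell as Mrgpra3, with 0.124 CPM next.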

How the results depend on the processing

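Of the 7 members, 0 were called under RLE scaling, with the replicate block or with any library left out, in each of the 7 comparisons. DESeq2 called Mrgpra3 in the averaged comparison and at 8 months. Without the filter and with spike-in scaling, members were called in some comparisons, as the report gives for each. Without injured 8-month replicate 3, Mrgpra3 had no value at 8 months. The cause of the changes below was not tested.

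Over all genes, the averaged injury comparison called 878 genes, and 13493 with spike-in scaling, 1722 without the filter, 1548 with DESeq2 and 329 with the replicate block. In the same order the counts were 33, then 50, 276, 123 and 5 at 1 month, 136, then 631, 661, 533 and 29 at 8 months, and 425, then 13675, 937, 1231 and 58 at 12 months. For age in intact neurons they were 593, then 12158, 1951, 1972 and 244. For age in injured neurons they were 31, then 8, 319, 132 and 22, and for injury by age 0, then 60, 385, 208 and 1, with 1 under RLE scaling. With 1 library left out at a time the counts ranged from 561 to 1462 (averaged), 6 to 47 (1 month), 27 to 236 (8 months), 74 to 1036 (12 months), 254 to 1697 (age, intact), 14 to 42 (age, injured) and 0 to 20 (injury by age). The highest of the averaged, the 12-month and both age counts came without intact 12-month replicate 2, the lowest averaged and 12-month counts without injured 12-month replicate 2.

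Spike-in scaling, which moved the median of all genes to 2.90, turned these log2 injury changes upward. Averaged over ages they became 0.639 for Mrgprd, 1.629 for P2rx3, 1.475 for Cd55, 0.813 for Lpar3, 0.493 for Lpar5, 0.639 for Mrgprb5, 1.183 for Acpp, 2.224 for Entpd3, 2.184 for Prkce, 1.148 for Prdm12, 3.175 for Nefm, 2.503 for Nefh, 2.712 for Piezo2, 2.669 for Cacna1h, 2.024 for Rbfox3, 2.442 for Mbp and 2.451 for Lyz2. P2rx3 became 0.126 at 1 month and Cd55 0.658 at 8 months. At 12 months Mrgprd became 4.583, Mrgprx1 4.484, Mrgpra3 3.654, Cd55 4.402, Lpar3 4.52 and Lpar5 4.372. The replicate block gave 0.008 for Nefm, 0.109 for Piezo2 and 0.267 for Cacna1h in the averaged comparison, and 1.219 for Mrgprx1 and 0.567 for Mrgpra3 at 12 months, where DESeq2 gave 0.155 for Mrgpra3. With the block the calls of Il31ra (edgeR adjusted p = 0.0599), Gfra1 (0.072), C4b (0.0633), Prdm12 (0.0858), Prkce (0.15) and Col1a2 (0.0951) were lost, and those of Stmn2 (0.105), Tubb3 (0.115) and Rbfox3 (0.189) as well.

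Leaving out 1 library at a time turned the following estimates, given as the lowest and highest value with the library whose absence turned the sign. Averaged over ages, Mrgprx1 ranged from -0.32 to 3.067 (below 0 without injured replicate 3 of 1 month, 1 of 8 months or 3 of 12 months). Nefm ranged from -0.36 to 0.39 (intact 12-month replicate 2), Piezo2 from -0.268 to 0.214 (intact 12-month replicate 2, and 8-month replicate 2) and Cacna1h from -0.714 to 0.238 (intact 12-month replicate 1, and 1-month replicate 3). At 1 month Mrgprx1 ranged from -1.184 to 1.807 (injured replicate 3, and intact replicate 1), Mrgpra3 from -3.897 to 6.978 (injured replicate 3) and Lpar3 from -8.076 to 0.228 (intact replicate 3). At 8 months Mrgprd ranged from -3.213 to 0.182 (intact replicate 2), Mrgprx1 from -0.387 to 1.49 (injured replicate 1) and Cd55 from -1.577 to 0.569 (intact replicate 3, and injured replicate 2). At 12 months Mrgprd ranged from -1.099 to 0.863, Lpar3 from -1.39 to 0.528 and Lpar5 from -1.824 to 0.622 (intact replicate 3 for each). Mrgprx1 ranged from -1.253 to 8.068 (intact replicate 1, and injured replicate 2), Mrgpra3 from -0.783 to 9.119 (intact replicate 1, and injured replicate 3) and P2rx3 from -0.202 to 1.538 (intact replicate 2).

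In single cells, the share with at least 100 CPM of Mrgprd was 16.4%, and 14.9% without cells above 20% mitochondrial RNA, an alternative chosen after seeing the data. Shares with a count moved for 10 of 28 combinations of marker and group on thinning, and pooled levels moved for 25 of 28 when counts of CT010467.1 were included.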
